A study of Mus musculus with 54 samples.

Results

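Aortas of C57Bl/6 (C57) mice were set against aortas of C3H/HeJ (C3H) mice after 4 weeks on a high-fat diet. The comparison rests on the 6 arrays whose titles carry strain, week 4 and high-fat diet, 3 per strain, out of 54 arrays in the series. Each array hybridised aorta total RNA together with mouse embryo total RNA, so a strain difference is a difference between ratios to a common embryo RNA. The other 48 arrays hold the same strains at week 0 and at weeks 4, 8, 24 and 40 on normal chow, and at weeks 8, 24 and 40 on high-fat diet, with 3 arrays per group. What the titles call week 8 is week 10 in the source field, so every week 8 value below may belong to week 10. The labels state no age, sex or diet composition, nor how many animals stand behind an array. The 3 arrays of a group may be separate animals, pools or repeats of 1 RNA, and the p-values below cover no more than the spread among them, which may be technical.

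C57Bl/6 and C3H/HeJ are inbred strains that are widely set against each other in atherosclerosis research, because C57Bl/6 mice develop fatty streaks in the aorta on an atherogenic diet and C3H/HeJ mice largely resist them. C3H/HeJ mice also carry an inactivating mutation in the endotoxin receptor Tlr4. The aorta is a mixed tissue of smooth muscle, endothelium, fibroblasts and adherent fat. In such bulk RNA, fewer cells of a type and less RNA per cell cannot be told apart. The question the comparison addresses is which array features already differ between the strains early on the high-fat diet, and which of those differences also stand on chow or at other weeks.

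The 21446 array features are given by number. The platform annotation lists 17284 of them with a gene, including 250 of the 298 features called below, but its names were not borne out by the values. Over 345 pairs of features listed with the same sequence accession, the mean ratio of one member against the other gave r = -0.0468 across pairs. The median r of the pairs over the 54 arrays was 0.0166, against 0.00743 for 1000 pairs drawn at random from the features measured on all arrays. No gene is therefore named, and aorta or other cell type markers were not tested. All values are deposited log ratios in which log10 is the likely base, because the values stop at exactly 2 and -2. Whether aorta stands over embryo or embryo over aorta is not stated either. If it ran embryo over aorta, higher and lower would turn round together.

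The 6 arrays did not separate cleanly by strain over all features. The correlation r across features was 0.811 to 0.849 among the C57 arrays, 0.758 to 0.879 among the C3H arrays and 0.650 to 0.886 between the strains. C57 replicate 1 correlated best with C3H replicate 1, at 0.886, and less with C57 replicate 2 (0.849) and C57 replicate 3 (0.831). The SD of the log ratio over features was 0.244, 0.281 and 0.249 on C57 replicates 1, 2 and 3, against 0.305, 0.195 and 0.270 on C3H replicates 1, 2 and 3. C3H replicate 1 had the widest spread of all 54 arrays, and 3 of the 54 had a narrower spread than C3H replicate 2. The median array had 0.267.

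The narrow range of C3H replicate 2 was also visible in a set of near-identical features. There were 111 features whose values tracked one another on every array, at regular numbers (108 of the 110 gaps between them were multiples of 7), and the annotation lists none of them. Their mean log ratio was -0.83, -1.10 and -0.88 on C57 replicates 1, 2 and 3, against -1.14, -0.51 and -1.25 on C3H replicates 1, 2 and 3. C3H replicate 2 thus stood closest to 0. The SD of the 111 features within an array was 0.0222 to 0.0714, and the rule that picked them keeps it small. None of the 111 differed between the strains past the threshold (0 of 111 called, against 1.41% of all tested features). Being near-identical, they are not 111 separate checks, and the count is not read as a result about them.

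**Figure D1:**
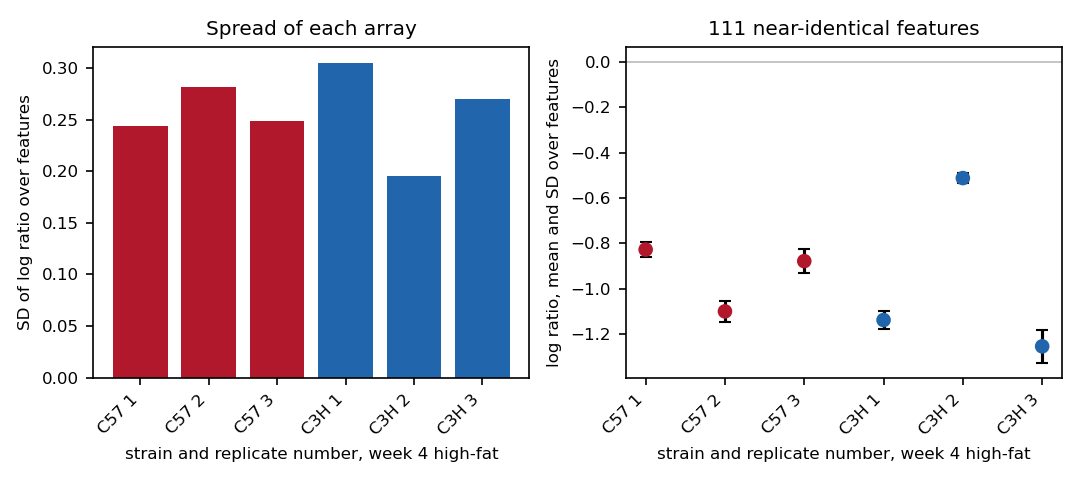
Left: the SD of the log ratio over all features for the 3 C57 arrays (red) and the 3 C3H arrays (blue) at week 4 on high-fat diet. Right: the mean log ratio of 111 near-identical features on the same arrays, with bars for their SD within the array. C3H replicate 2 has the smallest SD of the 6 arrays, 0.195, and the mean nearest 0, -0.51.

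At week 4 on high-fat diet, 298 of 21179 tested features differed between the strains (limma, adjusted p under 0.05, 1.41% of features). Of these, 179 were higher in C57 (0.845%) and 119 lower (0.562%). At an unadjusted p under 0.05 there were 2740 features (12.9%). The difference of a called feature had a median size of 0.32 log ratio units, which is 2.11-fold if the base is 10, against a median of 0.058 over all tested features. It ranged from 0.10 to 1.28. Among called features, those higher in C57 were more often large: 123 of 179 exceeded 0.3, against 40 of the 119 lower ones. This lean did not hold over all tested features. Past 0.5, 173 lower and 30 higher differences were not called, against 12 lower and 47 higher that were. The median SE of the called ones past 0.5 was 0.148 for higher and 0.0793 for lower features.

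Called features mostly kept the arrays of the strains apart. Of the 297 called features measured on all 6 arrays, 292 had the 3 C57 arrays all on one side of the 3 C3H arrays, 175 higher and 117 lower, and 5 overlapped. Among all 20972 features measured on these arrays, 3111 (14.8%) did not overlap, 1546 (7.37%) higher and 1565 (7.46%) lower in C57. The difference between arrays of the same number had the same sign for numbers 1, 2 and 3 in 295 of the 298. Over all features measured on these arrays the share was 41.6%. Features without overlap must have the same sign, so the 295 follow largely from the calls. The median size of the same-number difference in called features was 0.295 for number 1, 0.287 for number 2 and 0.325 for number 3. The largest of the 3 differences fell on numbers 1, 2 and 3 in 87, 91 and 119 features.

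The count depended on single arrays and on how the 6 arrays were scaled. It was 105, 98 and 480 without C57 replicate 3, 2 and 1, against 92, 290 and 63 without C3H replicate 3, 2 and 1. Scaling C3H replicate 2 alone to the median spread, by a factor of 1.42, gave 646 called features (365 higher, 281 lower), which held 296 of the 298. A term for the arrays numbered 3 gave 1385 (694 higher, 691 lower), and a fit to the arrays of the comparison alone gave 12 (5 higher, 7 lower).

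The largest differences in the lower direction were shared with every other condition. Feature 17783 had log ratios of -0.13, 0.03 and -0.12 on C57 replicates 1, 2 and 3, against 1.26, 1.09 and 1.26 on C3H replicates 1, 2 and 3. The C57 arrays all lay near 0 and the C3H arrays all above 1, with a difference of -1.28 ± 0.0698 (SE; 19.0-fold if log10, limma adjusted p = 8.3e-17). In the other 8 conditions its strain difference lay between -1.30 and -1.02, and it was called in all 8.

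Feature 14540 had -0.12, 0.02 and -0.09 in C57 against 0.97, 0.95 and 0.95 in C3H. The C3H arrays agreed closely, C3H replicate 2 included, and the difference was -1.02 ± 0.0551 (SE). Feature 9352 had -0.02, 0.06 and 0.08 in C57 against 1.39, 1.15 and 1.35 in C3H, a difference of -1.26 ± 0.0757 (SE). Feature 10555 averaged 0.022 ± 0.00467 in C57 and 1.05 ± 0.0372 in C3H (SD, n = 3 each), a difference of -1.02 ± 0.0809 (SE). In these features the C57 arrays lay near 0, the array median, and the C3H arrays well above it.

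Feature 10334 had 0.33, 0.23 and 0.12 in C57 against 1.61, 1.04 and 1.49 in C3H. Among its C3H arrays replicate 2 was the lowest, and the difference was -1.15 ± 0.137 (SE). Feature 5406 had 0.09, 0.14 and 0.36 in C57 against 1.32, 0.63 and 0.97 in C3H, again with C3H replicate 2 nearest 0, and a difference of -0.78. Features 12504 (-0.86), 16960 (-0.83), 5712 (-0.66) and 3393 (-0.65) complete the 10 largest lower differences. In features 10555, 14540, 5712 and 3393 another C3H array lay nearest 0. Whether the small range of C3H replicate 2 set its level in single features was not tested. All 10 kept their sign in the other 8 conditions, called in 7 of them for feature 5712 and in all 8 for the rest.

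The next lower differences behaved otherwise. Feature 2739 had 0.19, 0.22 and 0.18 in C57 against 0.90, 0.60 and 0.99 in C3H, and feature 17433 had 0.10, -0.06 and 0.06 in C57 against 0.61, 0.46 and 0.58 in C3H. Their differences, -0.63 and -0.51, were past the threshold at week 4 on high-fat diet, but feature 2739 kept its sign in 3 and feature 17433 in 4 of the other 8 conditions.

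The largest differences in the higher direction were of the second kind. Feature 14974 had 1.65, 0.94 and 0.84 on C57 replicates 1, 2 and 3, against -0.17, 0.11 and 0.01 on C3H replicates 1, 2 and 3. C57 replicate 1 stood above the other C57 arrays, and the difference was 1.16 ± 0.209 (SE; 14.4-fold if log10, limma adjusted p = 0.00123). In the other 8 conditions its strain difference lay between -0.23 and 0.098, with the same sign in 3 and a call in none.

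Feature 12818 had 0.83, 1.10 and 1.11 in C57 against -0.17, 0.19 and 0.06 in C3H, a difference of 0.99 ± 0.255 (SE), and its strain difference was negative in all 8 other conditions. Feature 1786 had 0.82, 1.01 and 0.89 in C57 against -0.17, 0.18 and -0.11 in C3H, a difference of 0.94 ± 0.207 (SE). Feature 12021 had 0.67, 0.96 and 0.82 in C57 against -0.09, 0.09 and 0.01 in C3H, a difference of 0.81 ± 0.173 (SE). The C3H arrays of these features lay near 0, and their C57 arrays well above.

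Of the 12 largest higher differences, 10 were called in no other condition and kept their sign in at most 3 of the other 8. Besides the 4 above these were features 13855 (0.76), 15766 (0.75), 20265 (0.72), 13827 (0.71), 20115 (0.70) and 18464 (0.69). Features 4881 and 4070 were the exceptions. Feature 4881 had -0.14, -0.02 and -0.35 in C57 against -1.52, -0.97 and -0.92 in C3H, a difference of 0.97 ± 0.195 (SE), and 1.12 to 1.41 in the other 8 conditions. Feature 4070 had 0.66, 0.55 and 0.50 in C57 against -0.06, -0.03 and -0.29 in C3H, a difference of 0.70 ± 0.0873 (SE), and 0.59 to 0.89 in the other 8. Both were called in all 8.

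**Figure D2:**
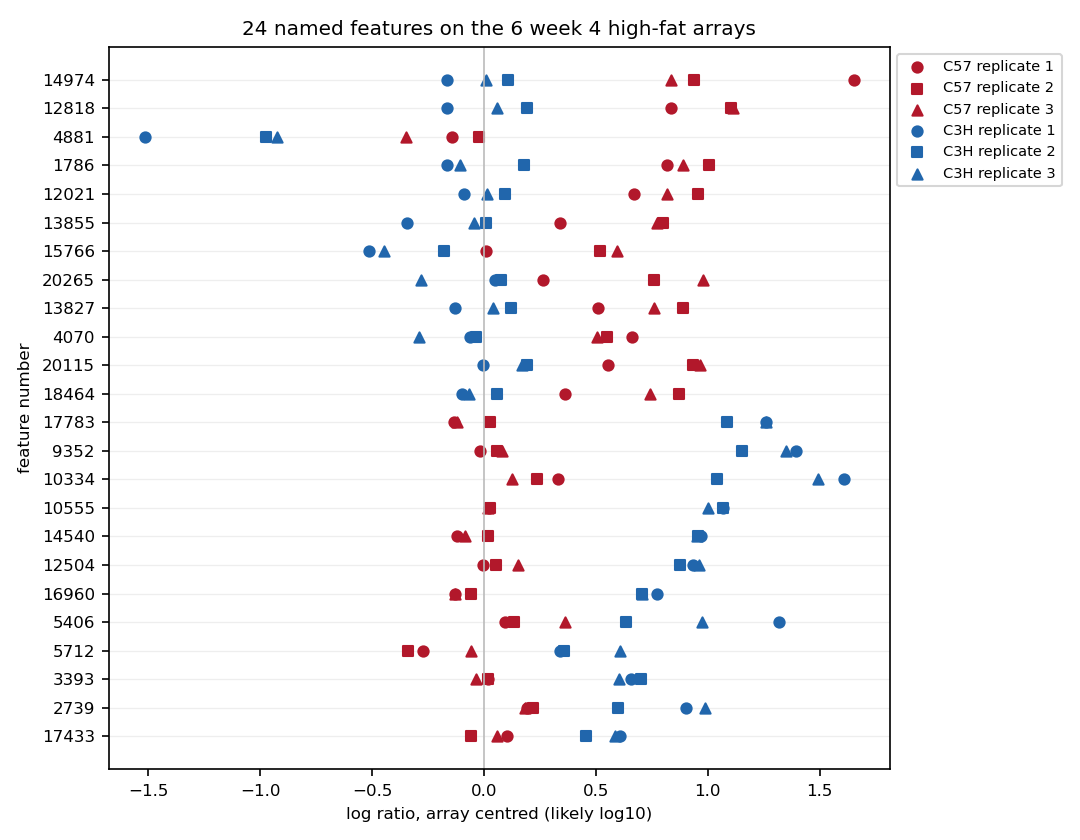
Log ratio (x axis, likely log10, each array centred on its median) of the 12 features with the largest higher and the 12 with the largest lower difference (rows, by feature number) on the 6 arrays at week 4 on high-fat diet, C57 in red and C3H in blue, with 1 marker shape per replicate number. C57 and C3H points do not overlap in any row, which the choice of these features requires, and the differences run from 1.16 (feature 14974) to -1.28 (feature 17783).

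Across the 298 called features, 170 had the same sign in all 8 other conditions (57.05%, against 12.8% of all tested features), 91 higher and 79 lower in C57. Another 90 kept it in at most 4 of the 8, and these were unevenly divided, with 73 higher and 17 lower. The remaining 38 kept it in 5 to 7. In all 8 other conditions 32 features were called with the same sign (17 higher, 15 lower), and 162 were called with the same sign in none (99 higher, 63 lower). For the 90, the 38, the 32 and the 162 no share over all tested features is given, so they are counts only. With the opposite sign, 4 of the 298 were called at week 0, 1 at week 24 on chow and 2 at week 40 on chow.

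The 8 other conditions were measured on other arrays. By condition, the sign at week 4 on high-fat diet recurred most often at week 24 on high-fat diet, in 278 of 298 (93.3%, against 65.9% of all features), and 94 of the 298 were called there with that sign. It recurred in 243 at week 4 on chow (81.5%, against 61.3%), with 62 called with that sign, and in 203 at week 0 (68.1%, against 52.3%), with 59 called with that sign. At weeks 8 and 40 on high-fat diet it recurred in 223 (74.8%, against 58.2%) and 212 (71.1%, against 59.9%), with 64 and 109 called with that sign. The share of all features called was 0.685% at week 8, 1.46% at week 24 and 2.01% at week 40 on high-fat diet, and 0.534%, 0.444%, 0.803%, 0.529% and 0.741% at weeks 0, 4, 8, 24 and 40 on chow.

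**Figure D3:**
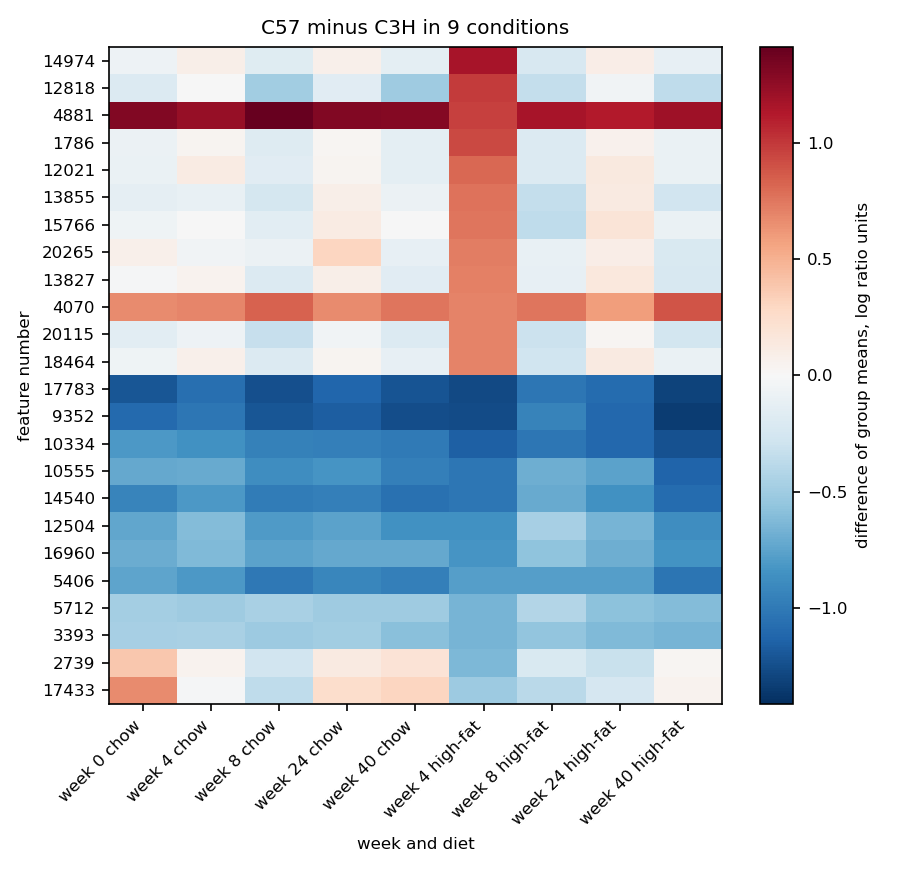
Strain difference (C57 minus C3H, log ratio units, color scale) of the 24 largest features (rows) in 9 conditions of week and diet (columns). Most lower features keep one color across the columns, as feature 17783 does between -1.30 and -1.02, while most higher features are far from 0 in the week 4 high-fat column and nearer to 0 elsewhere, as feature 14974 does at 1.16 against -0.23 to 0.098 elsewhere.

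The groups of features that kept or lost their sign were formed after their values were seen, and their levels are a description without a test. The 91 higher features that kept their sign had array medians of 0.047 to 0.095 in C57 at week 4 on high-fat diet, against -0.24 to -0.15 in C3H. On the other 48 arrays they had -0.013 to 0.097 in C57 against -0.26 to -0.10 in C3H. The 79 lower features that kept their sign had -0.041 to -0.026 in C57 against 0.18 to 0.25 in C3H at week 4 on high-fat diet, and -0.040 to 0.0082 in C57 against 0.095 to 0.24 in C3H on the others. In both groups the C57 arrays lay nearer to 0 than the C3H arrays. The median strain difference of the 91 was 0.31 at week 4 on high-fat diet and 0.22 at week 4 on chow. That of the 79 was -0.26 and -0.18. Of the 170 features in both groups, 141 had the larger difference on high-fat diet at week 4. They were called on that diet, which favours larger values there.

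The 73 higher features that lost their sign elsewhere varied widely across arrays of both strains. Their array medians were 0.28 to 0.65 in C57 at week 4 on high-fat diet, against -0.11 to 0.024 in C3H. On the other 48 arrays they ranged from -0.032 to 0.51, with a median of 0.24. At or below the highest C3H array of week 4 on high-fat diet lay 5 of those 48: C57 replicate 1 at week 4 on chow, C57 replicate 1 at week 40 on chow, C57 replicate 1 at week 40 on high-fat diet, C3H replicate 1 at week 4 on chow and C3H replicate 3 at week 40 on high-fat diet. At or above the lowest C57 array lay 16. The median strain difference of the 73 was 0.51 at week 4 on high-fat diet, against -0.014 at week 4 on chow and -0.043 at week 0. At weeks 8, 24 and 40 on high-fat diet it was -0.10, 0.094 and -0.11. Their mean residual SD within groups was 0.158, against 0.0892 and 0.0737 for the higher and lower features that kept their sign, so they also varied more between arrays of one group. Of the 73, 11, 3 and 67 were still called without C57 replicate 3, 2 and 1, against 4, 40 and 3 without C3H replicate 3, 2 and 1. Of the 170 that kept their sign everywhere, 71, 72 and 142 were still called without C57 replicate 3, 2 and 1, against 76, 128 and 53 without C3H replicate 3, 2 and 1.

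Arrays of one strain were uneven in the large differences that were not called. There were 173 features with a difference below -0.5 that did not pass the threshold, against 12 below -0.5 that did. The median level of the 173 was -0.69, -1.26 and -0.94 on C57 replicates 1, 2 and 3, against -0.78, -0.08 and -0.16 on C3H replicates 1, 2 and 3. C3H replicate 1 thus lay within the range of the C57 arrays, while C3H replicates 2 and 3 stood near 0. The 173 were picked for a large difference, and 39 of them did not overlap, against 14.8% of all features measured on these arrays. Their median SE was 0.295, against 0.0793 for the 12 called. In the higher direction 30 features exceeded 0.5 without a call, against 47 with one.

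**Figure D4:**
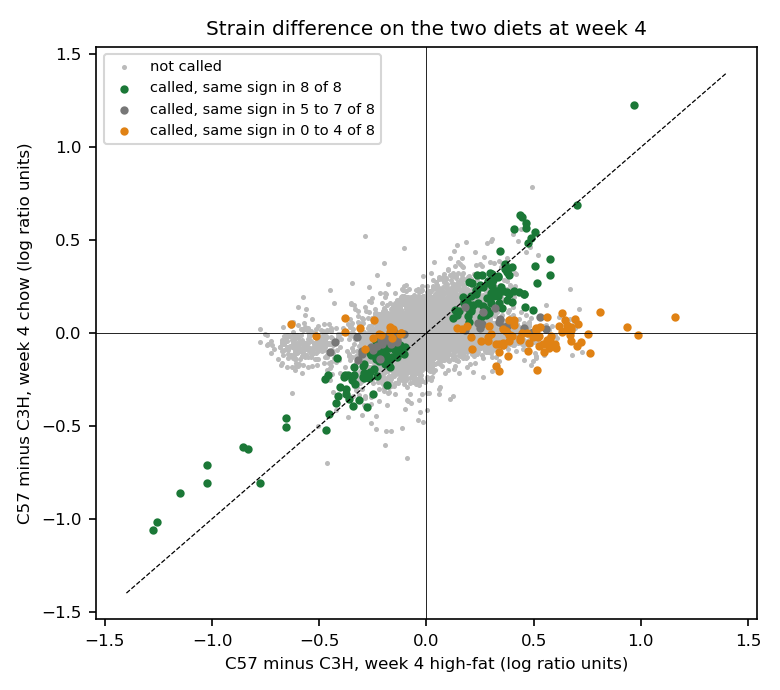
Strain difference (C57 minus C3H, log ratio units) at week 4 on high-fat diet (x axis) against week 4 on chow (y axis), 1 point per tested feature, in colors for the 298 called on high-fat diet and grey for the rest. Called features such as 17783 (-1.28 on high-fat diet, -1.06 on chow) lie near the diagonal but smaller on chow. Called features such as 14974 (1.16, 0.087) lie along the horizontal axis. The grey points left of -0.5 are the 173 lower differences that were not called.

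Whether the strain difference itself differed between high-fat diet and chow at week 4 was tested by the interaction over the 4 groups. No feature passed (limma, 0 called; 799 at an unadjusted p under 0.05, 3.77%; smallest adjusted p = 0.0596). The 2 smallest p-values in each direction belonged, among positive interactions, to feature 8454, whose strain difference was 0.34 on high-fat diet and -0.21 on chow, and feature 6956 (0.32 and -0.18). Among negative ones they belonged to features 1643 (-0.38 and 0.0039) and 2540 (-0.24 and 0.071). Of the 298 called features, 55 had the opposite sign on chow, and none of the 55 was called there. The 5 largest were features 12818, 13855, 15766, 20265 and 20115, whose strain differences on chow were -0.011, -0.11, -0.0051, -0.047 and -0.070. For the features that stood out at week 4 on high-fat diet, a difference from chow was thus not shown at this threshold. The count of 0 became 2 without C57 replicate 3 and 1 without C3H replicate 2 of week 4 on chow.

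The strain difference at week 4 on high-fat diet was also set against its mean over weeks 8, 24 and 40 on the same diet. No feature passed here (limma, 0 called; 1742 at an unadjusted p under 0.05, 8.23%; smallest adjusted p = 0.0598). Feature 14974 had the difference 1.16 at week 4, against -0.23, 0.098 and -0.11 at weeks 8, 24 and 40, and the interaction was 1.24 (adjusted p = 0.0832). Features 2510 (interaction 0.51) and 14974 had the 2 smallest p-values among positive interactions, and features 5322 (-0.26) and 7308 (-0.29) among negative ones. The count of 0 became 199 without C3H replicate 3 of week 40 on high-fat diet, 71 without C57 replicate 3 of the same week and diet, and 51 without C57 replicate 1 of week 4 on high-fat diet. It was 3 without C57 replicate 3 of week 4, 1 without C57 replicate 2 of week 24, 1 without C3H replicate 2 of week 4 and 1 without C3H replicate 1 of week 8, all on high-fat diet.

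Against week 0, the strain difference at week 4 on high-fat diet had changed for 10 features (limma, adjusted p under 0.05, 0.0472% of features), 2 in the positive and 8 in the negative direction. The week 0 arrays were on chow, so diet and the 4 weeks between cannot be told apart in this comparison. All 10 had opposite signs of the strain difference at the 2 times. At an unadjusted p under 0.05 there were 1356 features (6.4%). Of the 10, 8 were called at week 0, 5 at week 4 on high-fat diet and 0 at week 4 on chow. The shares of all tested features called there were 0.534%, 1.41% and 0.444%. On chow at week 4 the strain differences of the 10 lay between -0.21 and 0.11. The interaction subtracts the week 0 strain difference from the week 4 high-fat one. Opposite signs and calls at these 2 times thus follow largely from the choice of the 10. The 0 on chow lies near its share and is not read as a result. The count of 10 became 17 without C57 replicate 1 and 6 without C57 replicate 3 of week 4 on high-fat diet.

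Feature 17767 changed most. It had 0.45, 0.48 and 0.24 on the C57 arrays at week 4 on high-fat diet, against -0.15, -0.11 and -0.47 on the C3H arrays, a strain difference of 0.63. At week 0 the strains stood the other way round, with means of -0.48 ± 0.132 in C57 and 0.39 ± 0.142 in C3H (SD, n = 3 each), a difference of -0.87. The interaction was 1.50 ± 0.202 (SE, limma adjusted p = 2.8e-05). On chow at week 4 both strains were low, at -0.35 ± 0.207 in C57 and -0.46 ± 0.201 in C3H (SD, n = 3 each).

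Over the later weeks feature 17767 changed places between the strains again. On chow C57 had 0.34, -0.029 and -0.20 at weeks 8, 24 and 40, and C3H had -0.40, 0.30 and 0.37. On high-fat diet C57 had 0.43, 0.37 and -0.020 at the same weeks, and C3H had -0.27, -0.064 and 0.17. C57 was thus the higher strain at week 8 on both diets and C3H at week 40 on both, though at week 40 the difference passed the threshold on chow and missed it on high-fat diet (adjusted p = 0.0431 and 0.700).

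Features 17433 and 1643 ran the other way. Feature 17433 averaged 0.034 ± 0.0829 in C57 and 0.55 ± 0.0811 in C3H at week 4 on high-fat diet, and 0.65 ± 0.0476 in C57 and -0.019 ± 0.0604 in C3H at week 0 (SD, n = 3 each). The interaction was -1.18. On chow at week 4 the strains had 0.57 in C57 and 0.59 in C3H. Feature 1643 averaged -0.052 ± 0.0262 in C57 and 0.33 ± 0.0413 in C3H at week 4 on high-fat diet, and 0.37 ± 0.0239 in C57 and 0.020 ± 0.104 in C3H at week 0 (SD, n = 3 each), and its interaction was -0.73. On chow at week 4 it had 0.44 in both strains.

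Feature 8454 resembled feature 17767 in direction. It averaged -0.054 ± 0.0852 in C57 and -0.39 ± 0.0476 in C3H at week 4 on high-fat diet, and -0.57 ± 0.0712 in C57 and -0.082 ± 0.0761 in C3H at week 0 (SD, n = 3 each), with an interaction of 0.82. The other named features were 12418 (-0.98), 10892 (-0.51) and 21133 (-0.46). Features 2209 (-0.39), 14604 (-0.38) and 17756 (-0.26) completed the 10 and are named because they were few, after their values were seen.

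**Figure D5:**
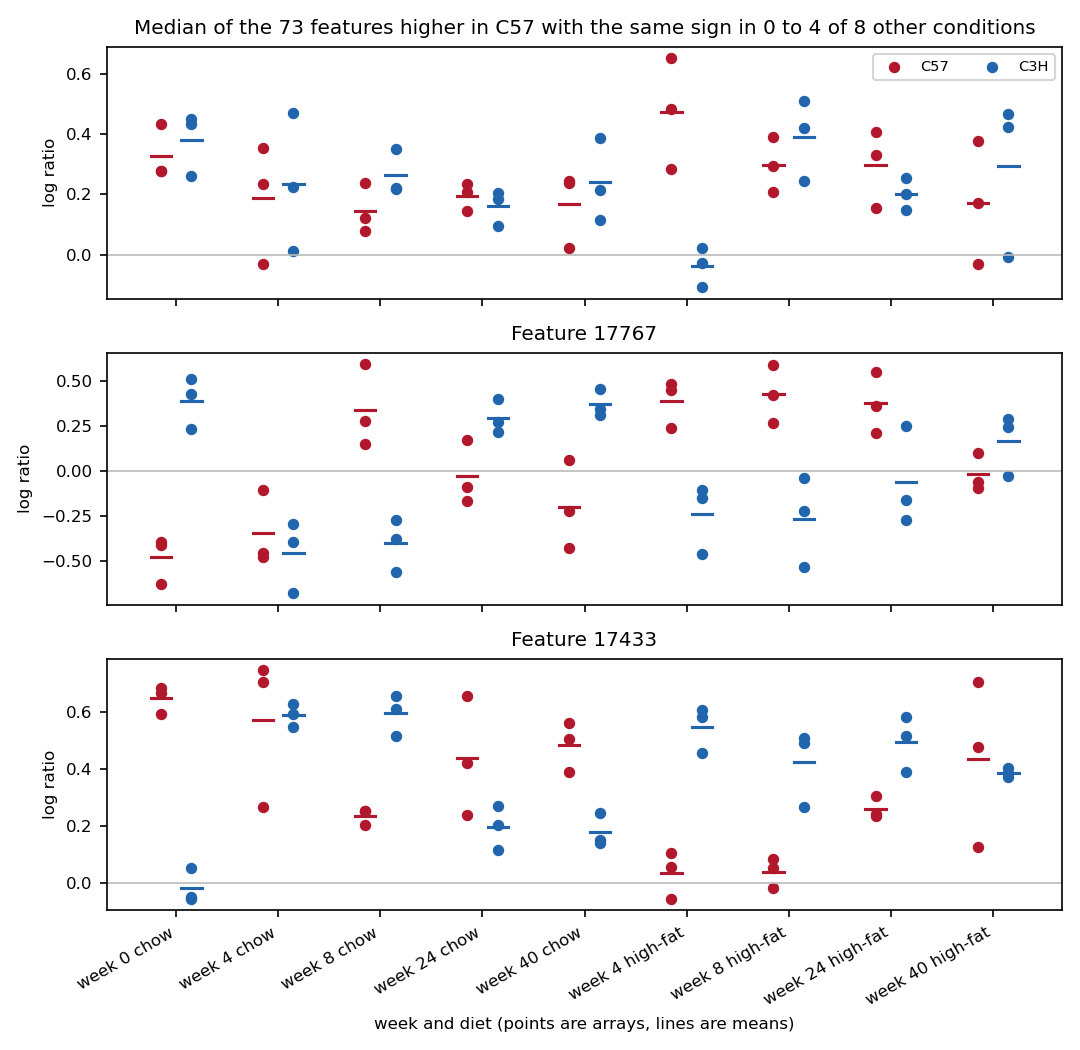
Log ratio on every array (points) with group means (lines) in 9 conditions of week and diet, C57 in red and C3H in blue. Top: the array median of the 73 features higher in C57 that lost their sign elsewhere, where the strains stand apart at week 4 on high-fat diet (0.28 to 0.65 in C57, -0.11 to 0.024 in C3H). Middle and bottom: features 17767 and 17433, whose strain order at week 4 on high-fat diet is the reverse of that at week 0.

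C3H replicate 2 was the C3H array nearest 0 somewhat more often in called features than over all. Among the 292 that did not overlap, it was the nearest of the 3 C3H arrays in 175 (59.9%), replicate 3 in 89 (30.5%) and replicate 1 in 28 (9.59%). Among all 20972 features the shares were 50.2% for replicate 2, 34.3% for replicate 3 and 15.4% for replicate 1. Leaving replicate 2 out kept 128 of the 170 features that held their sign in every condition and 51 of the 90 that held it in at most 4. Called features were spread over the array's numbering, with 1.01% to 1.82% called in 10 equal stretches of feature numbers.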

How the data were processed

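The values analysed are the deposited log10 ratios (log10 being the likely base only) of aorta and embryo RNA from 54 arrays of 2 channels, as the authors' series table gives them. The labels state no dye, scanner or normalization, and the deposited array medians (-0.0117 to 0.0118) were already close to 0. Weeks follow the titles, which say 8 where the source field says 10. Exact zeros (7895, 0.682% of values) were taken as not measured, and the median over the 20694 fully measured features was subtracted from each array. Testing required 2 or more values in every group, which 21179 features met and 267 did not.

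A group-means model over all 54 arrays was fitted in R 4.3.3 by limma 3.58.1 with eBayes (two-sided tests), and Benjamini-Hochberg adjustment ran over all tested features. The strain difference is C57 minus C3H, and interactions subtract the strain difference at week 4 on chow, at week 0 or over later high-fat weeks. The procedure was run on simulated data whose noise was independent between features and between arrays. Deviations that real arrays of one number may share were not simulated, so the run cannot speak to them. The text names the 12 largest differences in each direction among called features without overlap, up to 5 per direction for interactions (the 2 with the smallest p where none was called) and 5 with the opposite sign on chow. Members and lists were chosen with earlier results of these data known. Gene and cell type marker lists were not tested because names were not borne out. Precision is limited by the number of arrays. Alternatives covered scaling, centring, zeros, array weights, the replicate number, the arrays fitted and leaving out each array.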

Additional observations from a re-analysis of the deposited data

Results flagged for a closer look

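The strain difference (C57 minus C3H) at week 4 on high-fat diet differed from that at week 0 on chow by the interaction test in the 7 features named for it. In feature 17767 it went from -0.87 at week 0 to 0.63 at week 4 on high-fat diet, an interaction of 1.50. In feature 8454 it went from -0.48 to 0.34, an interaction of 0.82. The sign turned round in both. The interaction was -1.18 in feature 17433, -0.98 in feature 12418, -0.73 in feature 1643, -0.51 in feature 10892 and -0.46 in feature 21133. Of these, features 17767, 8454, 17433, 1643 and 21133 passed the threshold in all 26 alternatives run on them, feature 12418 in 24 and feature 10892 in 17. In the 3 arrays of a group no test for a single distant array was run.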

How the results depend on the processing

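The count of 298 features called for the strain difference at week 4 on high-fat diet became 646 with C3H replicate 2 alone scaled, 1385 with a term for number 3 and 12 from the arrays of the contrast alone, and 63 to 480 without 1 array. Array weights, 1 common spread, quantile normalization, no centring, zeros as values, other filters, numbers 1 and 2 alone and a random block for series gave 209 to 394. These were not always the same features, since 144 to 297 of the 298 were held. Numbers 1 and 2 alone held 144 (140 higher and 243 lower called), the series block 154 and array weights 186 (119 higher, 120 lower). Of the 73 higher features that lost their sign elsewhere, these 3 settings held 11, 10 and 18. The interaction with chow, 0 called, became 4 with array weights, 1 with a common spread, 1 with C3H replicate 2 scaled, 2 with the number 3 term, 5 from numbers 1 and 2, 1 with quantile normalization and 0 to 2 without 1 array. The interaction with later weeks, 0 called, became 4, 2, 1, 18, 2 and 1 in the same order, 536 with series as a random block and 0 to 199 without 1 array. The interaction with week 0, 10 called, became 32 with array weights, 16 with C3H replicate 2 scaled, 69 with the number 3 term, 24 with quantile normalization and 6 to 17 without 1 array. The causes were not tested. Of 918 alternatives run on named features, 770 kept their side of the threshold, 43 newly passed, 105 no longer passed and 0 reversed. Of the higher features, 20115 passed in 9 of 20 alternatives, 15766 and 18464 in 10; of the lower ones, 17783, 9352, 10555, 14540, 12504, 16960 and 3393 passed in 20.

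Same-numbered C57 and C3H arrays deviated from their group means with r of 0.114, -0.107 and 0.454 for numbers 1, 2 and 3. Of the 6 arrays, 2 correlated best with their own number across strains. The main fit has no term for the numbers, though the number was known to divide the arrays more than strain or diet does. The count of 298 therefore takes no account of it. These r values cover week 4 on high-fat diet alone, so they cannot decide whether arrays of one number share a deviation over the series. Fits to all arrays with the number 3 term (1385 called) or the replicate block each held all 298 and called more features. What the number stands for was not tested. With the replicate block over all arrays the counts were 1582 for the strain difference, 2 for the interaction with chow, 177 with later weeks and 71 with week 0. With the block in the arrays of the contrast alone they were 18 for the strain difference, 0 for the interaction with chow, 0 with later weeks and 45 with week 0.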
